A study of Mus musculus with 12 samples.

Results

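The Cyp2a and Cyp2b genes encode cytochrome P450 enzymes of the liver, and 7 of the 24537 genes in the deposited expression table make up the set described here. These are Cyp2a4, Cyp2a5, Cyp2a12, Cyp2a22, Cyp2b9, Cyp2b10 and Cyp2b13, taken by gene symbol. The family was chosen by its FPKM values in calorie-restricted against control mice, since genes of it such as Cyp2b9 and Cyp2a22 differed there, in these same libraries. The values of all 7 genes in CR against Con mice are therefore given as a description, without a test.

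Cytochrome P450 enzymes insert oxygen into lipophilic molecules and receive their electrons from P450 oxidoreductase. The CYP2A and CYP2B enzymes hydroxylate steroids, bile acids and foreign compounds, and several of their genes are induced by phenobarbital through the nuclear receptor CAR. In adult mice some of these genes also belong to the female-predominant genes of the liver, which the male pattern of growth hormone secretion keeps low.

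Liver RNA came from male C57Bl/6J mice that were individually housed and 6 weeks old at the start. Control (Con) mice ate ad libitum, and calorie-restricted (CR) mice received 30% less food. By the study's methods, CR mice ate a fortified diet that Con mice did not receive, and their food was given daily at noon. Amount of food, diet and feeding time therefore cannot be told apart. Livers were taken at day 25 or at day 30, on either side of a slowing of hepatic protein synthesis that the study followed, from 3 mice per diet and day. Each mouse gave 1 RNA-Seq library, numbered Con7 to Con9 and CR7 to CR9 at day 25 and Con10 to Con12 and CR10 to CR12 at day 30.

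Levels are given in FPKM, the number of exon reads scaled to the exon length in kilobases and to the depth of the library. The depth, worked out from the spacing of low values, was 15748721 to 23345557 reads per library, and all 79 member values above 0 came out as whole reads within a tolerance of 0.1 read. Read numbers are these recovered reads, and RPM stands for a gene's reads scaled to the depth of the library alone, without its length. A gene entered the tests if its FPKM was at least 1 in at least 3 libraries, which 10593 genes did. All 7 members passed, but Cyp2a4, Cyp2b9 and Cyp2b13 passed through CR libraries alone and so had to be higher in CR mice. Cyp2b13 passed through the CR libraries of day 30 alone, so it also had to be higher at day 30. Changes are differences of log2(FPKM + 1), a scale that understates the change of genes with low FPKM.

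The 7 genes together held 944 ± 126 RPM (SD, n = 3) in the Con group of day 25, against 1977 ± 133 (SD, n = 3) in the CR group. At day 30 the Con group held 1185 ± 256 RPM (SD, n = 3), against 2297 ± 213 (SD, n = 3) in the CR group. The ratio of CR to Con was 2.10 at day 25 and 1.94 at day 30, and the groups did not overlap on either day. The members differed widely in level. Cyp2a5 made up 60.1% of the summed FPKM of the family in Con mice at day 25 and 72.2% in CR mice, and Cyp2a12 made up 36.9% and 20.1%. The share of Cyp2b9 was 0.0367% in Con mice and 3.83% in CR mice at day 25, and 0.0176% and 11.1% at day 30. Liver is a mixture of cells, so a larger number of expressing cells and more RNA per cell cannot be told apart in any of these values.

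**Figure D1:**
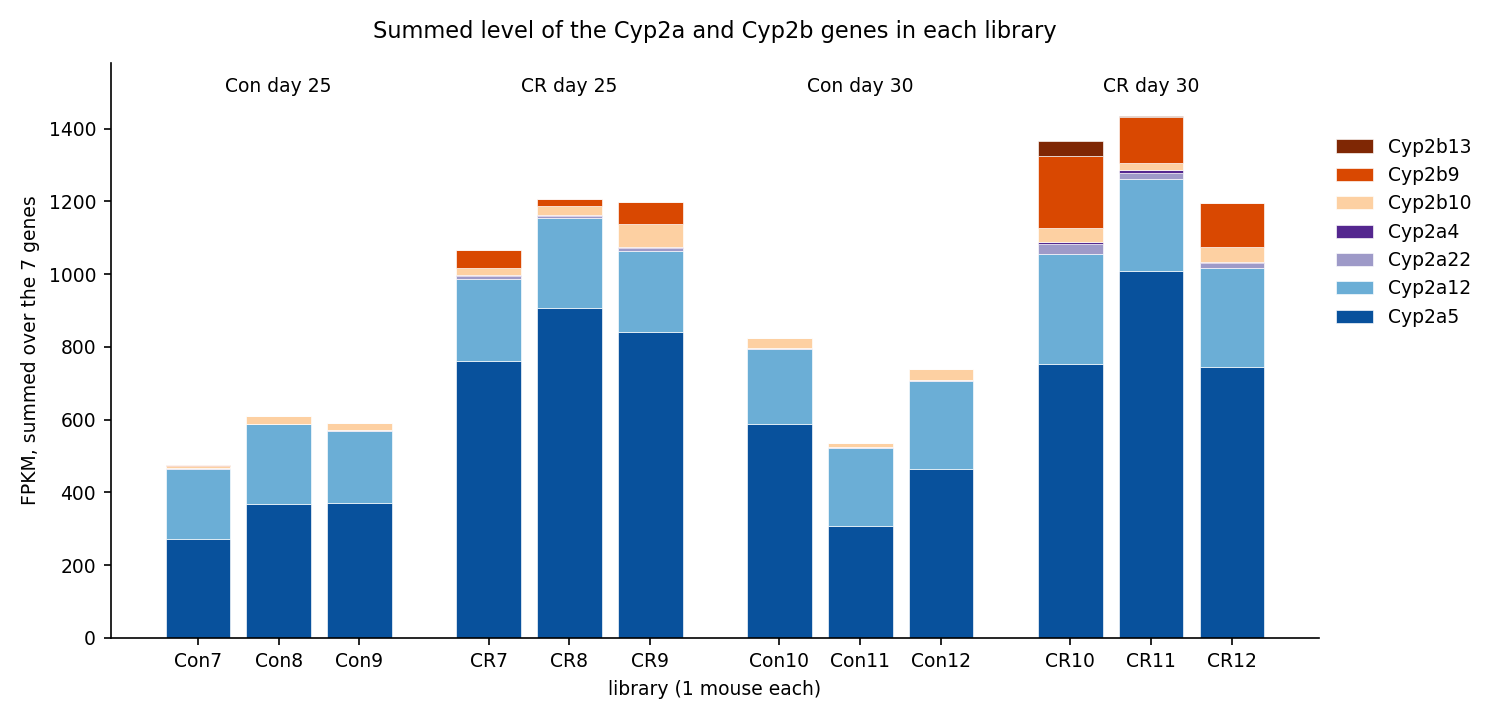
FPKM summed over the 7 Cyp2a and Cyp2b genes (vertical axis, from 0) in each of the 12 libraries, with 1 color per gene. Cyp2a5 and Cyp2a12 fill most of every bar, and the Cyp2b9 segment is visible in the CR libraries alone, where its FPKM was 19.7 to 60.6 at day 25 and 121 to 196 at day 30.

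Cyp2a5, the mouse coumarin hydroxylase and the counterpart of the human nicotine-oxidizing CYP2A6, was the most abundant member in every library. At day 25 its FPKM was 271, 369 and 371 in Con7, Con8 and Con9, and 761, 907 and 841 in CR7, CR8 and CR9. At day 30 its FPKM was 587, 306 and 464 in Con10, Con11 and Con12, and 753, 1008 and 744 in CR10, CR11 and CR12. Every CR library lay above every Con library of the same day. At day 25 the mean FPKM of Con mice was 337 ± 57.1 (SD, n = 3) and that of CR mice 836 ± 72.8 (SD, n = 3), a ratio of 2.48. At day 30 it was 452 ± 141 (SD, n = 3) and 835 ± 150 (SD, n = 3), a ratio of 1.85. The CR groups of both days were therefore at nearly the same level, while the Con groups overlapped with the later one higher on average.

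Cyp2a4, a steroid hydroxylase with female-predominant expression, was far less abundant. Its FPKM at day 25 was 0.191, 0.192 and 0.104 in Con7 to Con9, from 3 to 6 reads per library, and 1.74, 1.86 and 1.49 in CR7 to CR9. At day 30 its FPKM was 0.201, 0.275 and 0.156 in Con10 to Con12, and 7.90, 8.33 and 2.92 in CR10 to CR12. The CR libraries stood above the Con libraries on both days, and CR12 was low for its group but still above the day 25 CR libraries. The ratio of mean FPKM between CR and Con mice was 10.5 at day 25 and 30.3 at day 30. From the summed reads, 164 in CR and 15 in Con mice at day 25, the ratio of RPM was 10.3, with a 95% interval of 6.05 to 18.8. At day 30, with 706 and 23 reads, it was 29.9, with an interval of 19.8 to 47.4. These intervals are exact (Clopper-Pearson) and cover counting error only.

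Cyp2a12 hydroxylates testosterone and bile acids and was the member with the smallest spread. At day 25 its FPKM was 194, 220 and 198 in Con7 to Con9, and 227, 248 and 222 in CR7 to CR9. At day 30 its FPKM was 208, 217 and 243 in Con10 to Con12, and 302, 255 and 273 in CR10 to CR12. The CR libraries lay just above the Con libraries on each day, by 1.14 times in mean FPKM at day 25 and 1.24 times at day 30. In order of level the groups ran from Con day 25 through Con day 30 and CR day 25 to CR day 30, and the ranges of Con day 30 and its neighbors Con day 25 and CR day 25 overlapped. The SD within a group was 6.01% to 8.50% of its mean FPKM, against 28.4% to 115% for Cyp2b9.

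Cyp2a22, the close relative of Cyp2a12 on the opposite strand, was expressed far below it. Its FPKM at day 25 was 1.10, 0.491 and 2.76 in Con7 to Con9, and 8.03, 5.99 and 9.52 in CR7 to CR9. At day 30 its FPKM was 1.92, 0.466 and 2.26 in Con10 to Con12, and 27.0, 14.2 and 14.1 in CR10 to CR12. The CR libraries exceeded the Con libraries on both days and the later CR libraries exceeded the earlier ones, while the Con libraries of both days overlapped. The ratio of mean FPKM was 5.41 at day 25 and 11.9 at day 30. The day 25 ratio depended on Con9, which held 103 of the 168 Con reads, and was 9.84 without that library.

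Cyp2b10, the classic phenobarbital-inducible target of CAR, was the main Cyp2b transcript of Con mice and the member in which the diets were not separated. At day 25 its FPKM was 7.39, 20.5 and 18.4 in Con7 to Con9, and 18.6, 24.9 and 62.6 in CR7 to CR9. At day 30 its FPKM was 27.9, 10.9 and 29.4 in Con10 to Con12, and 37.9, 21.1 and 39.5 in CR10 to CR12. The groups overlapped on both days, and Con7, Con11 and CR11 stood low and CR9 high for their groups. The ratio of mean FPKM was 2.29 at day 25, or 1.41 without CR9, and 1.44 at day 30. In order of mean level, from Con day 25 to Con day 30, CR day 30 and CR day 25, every group overlapped with its neighbors.

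Cyp2b9 is a female-predominant member of the family. At day 25 its FPKM was 0.116, 0.029 and 0.477 in Con7 to Con9, from 4, 1 and 15 reads, and 51.4, 19.7 and 60.6 in CR7 to CR9, from 2032, 580 and 2273 reads. At day 30 its FPKM was 0.157, 0.025 and 0.214 in Con10 to Con12, from 6, 1 and 9 reads, and 196, 127 and 121 in CR10 to CR12, from 8547, 4603 and 5258 reads. The 6 Con libraries were near the limit of detection, the 6 CR libraries were far above them, and the CR libraries of day 30 were all above those of day 25. The mean FPKM in CR mice was 43.9 ± 21.4 (SD, n = 3) at day 25 and 148 ± 42.0 (SD, n = 3) at day 30. At day 25 the ratio to Con mice was 212 by mean FPKM, and 230 by summed reads with a counting interval of 149 to 376. Con9 set much of this ratio, which was 605 without it. At day 30 the ratio was 1121 by mean FPKM, and 1120 by summed reads with a counting interval of 689 to 1960.

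Cyp2b13, the second female-predominant Cyp2b gene, was nearly silent in 3 of the 4 groups. At day 25 it had 0, 0 and 2 reads in Con7 to Con9, and 2, 0 and 3 reads in CR7 to CR9. At day 30 it had 1, 0 and 0 reads in Con10 to Con12, and 1784, 106 and 65 reads in CR10 to CR12, or an FPKM of 41.0, 2.92 and 1.49. All 3 CR libraries of day 30 stood above all other libraries, but CR10 held 91.3% of their 1955 reads and was 14.0 times as high as the next library. Without CR10 the mean FPKM of the group was 2.21 instead of 15.1. The ratio of RPM between CR and Con mice was 2.35 at day 25, with a counting interval of 0.385 to 24.7 from 5 and 2 reads. At day 30 it was 1903, with an interval of 341 to 75197 from 1955 reads and 1 read. By mean FPKM the ratio at day 30 was 1747, and 255 without CR10, below that interval, which covers counting error only. A difference at day 25 was not detectable at this depth.

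**Figure D2:**
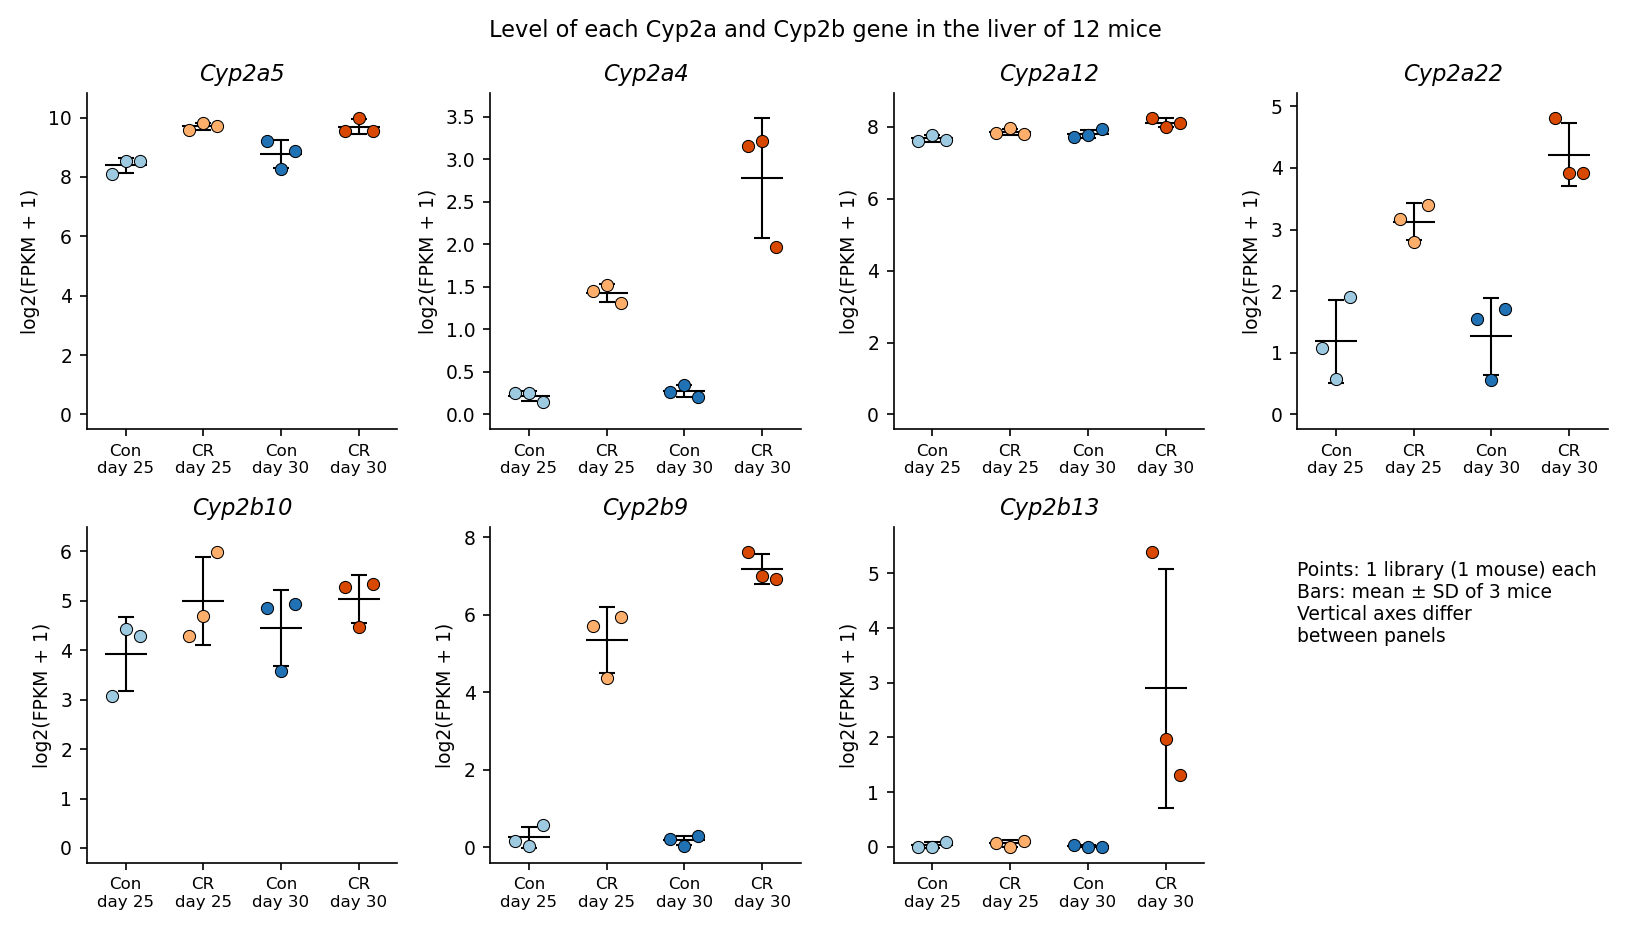
log2(FPKM + 1) of each Cyp2a and Cyp2b gene by diet and day, with 1 point per library and the mean ± SD of 3 mice. The CR points lie above the Con points of the same day for every gene except Cyp2b10 and, at day 25, Cyp2b13, and CR10 is the high point of Cyp2b13.

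At day 25, 5 of the 7 members had all CR libraries above all Con libraries, the exceptions being Cyp2b10 and Cyp2b13. This was the case for 10.2% of all genes tested. At day 30 it was 6 of the 7, all but Cyp2b10, and 12.1% of all genes tested. Both comparisons entered the choice of the family, so nothing is read from these counts. The order of the changes differed from the order of the levels. At day 25 the log2 difference of CR from Con ran from 0.03 for Cyp2b13 and 0.19 for Cyp2a12 through 1.07 for Cyp2b10, 1.21 for Cyp2a4, 1.32 for Cyp2a5 and 1.94 for Cyp2a22 to 5.09 for Cyp2b9. At day 30 it ran from 0.31 for Cyp2a12 through 0.58 for Cyp2b10, 0.92 for Cyp2a5, 2.51 for Cyp2a4, 2.88 for Cyp2b13 and 2.95 for Cyp2a22 to 7.01 for Cyp2b9. These directions were the same under median-ratio scaling, TPM and quantile normalization, with the exception of the day 25 value of Cyp2b13, which turned to -0.0423 under quantile normalization.

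The day 30 value minus the day 25 value of these log2 differences was 2.85 for Cyp2b13, 1.92 for Cyp2b9, 1.29 for Cyp2a4, 1.01 for Cyp2a22, 0.12 for Cyp2a12, -0.40 for Cyp2a5 and -0.49 for Cyp2b10. The family thus held members whose difference was larger at day 30 and members whose difference was smaller. For 2 members the size depended on 1 library. Without CR9, the difference of Cyp2b10 was 0.57 at day 25, close to its 0.58 at day 30. Without CR10, that of Cyp2b13 at day 30 was 1.63, against 0.03 at day 25. Whether the diet effect itself differed between the days was not tested for the members. Outside the family, 1 gene of 10586 passed this test in limma with Benjamini-Hochberg adjustment, the small nucleolar RNA gene Snord55, which was named after its values were seen. It had a log2 difference of -1.68 (SE 0.23, limma adjusted p = 0.0833) from at most 3 reads in any library, and 366 genes had an unadjusted p under 0.05. The count was 0 without Con7, Con8, Con9, Con12, CR7, CR8, CR10 or CR12 and 4 without CR9. Without CR11 the call of Snord55 was lost as well, at a limma adjusted p of 0.138.

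The comparison of day 30 with day 25 within a diet did not choose the family, although the same libraries entered the choosing contrast, so members were tested there where a call was possible. In Con mice it was not for Cyp2a4, Cyp2b9 and Cyp2b13, whose FPKM of at most 0.275, 0.477 and 0.064 in Con libraries leaves no room for a log2 change of 1. Limma with Benjamini-Hochberg adjustment called 0 of the other 4 members and 0 of 10593 genes (0%), with 765 genes at an unadjusted p under 0.05 and no member among them. The groups overlapped for every member, and all libraries of day 30 lay above those of day 25 in 7.23% of all genes tested. The count of called genes in Con mice was 10 without Con7, 5 without Con10 and 3 without CR8, with no member among them.

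In CR mice, 2 of the 6 members tested were higher at day 30 than at day 25 past both thresholds. These were an adjusted p below 0.1 and a log2 change of 1 or more in either direction. Of all genes tested, 0.0661% passed as higher and 0.142% in either direction. The CR values of both days entered the choice of the family, and the 2 members passed the filter through CR libraries alone. Nothing is therefore read from this count. Cyp2b9 was higher by 1.84 on the log2 scale (SE 0.33, limma with Benjamini-Hochberg adjusted p = 0.0781). The days used different mice, and every CR library of day 30 lay above every CR library of day 25. Cyp2a4 was higher by 1.35 (SE 0.25, limma with Benjamini-Hochberg adjusted p = 0.0799), again without overlap between the days. Both calls were close to the threshold, and over all alternatives the adjusted p was 0.0423 to 0.266 for Cyp2b9 and 3.70e-05 to 0.265 for Cyp2a4. Both calls were lost without a filter (limma adjusted p = 0.198 for each), with the CR groups alone (0.187 for Cyp2b9 and 0.192 for Cyp2a4) and with a pseudocount of 0.1 (0.266 and 0.112), and that of Cyp2b9 also with TPM (0.115). For Cyp2b9 the adjusted p from limma was 0.164 without CR7, 0.241 without CR10, 0.143 without CR11 and 0.114 without Con8. For Cyp2a4 it was 0.223 without CR7, 0.171 without CR8, 0.184 without CR9, 0.265 without CR10, 0.167 without CR11 and 0.114 without Con8.

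Cyp2b13 is given without a test here, since the filter fixed its direction. Its mean log2 level was higher by 2.83 at day 30, or by 1.58 without CR10. The other 4 members did not pass. Cyp2a22 had a log2 fold change of 1.09 (SE 0.37, limma with Benjamini-Hochberg adjusted p = 0.383), and Cyp2a12 one of 0.25 (SE 0.11, limma adjusted p = 0.524). Cyp2a5 and Cyp2b10 were level, with log2 fold changes of -0.01 (SE 0.22) and 0.03 (SE 0.49). In 4 members, Cyp2a4, Cyp2a12, Cyp2a22 and Cyp2b9, all CR libraries of day 30 lay above all CR libraries of day 25, against 6.32% of all genes tested. The same holds for Cyp2b13 by the filter, so it is not counted. Since the CR values of both days entered the choice of the family, the count of 4 is descriptive only. Among all genes, 7 were higher and 8 lower at day 30 in CR mice. The total of 15 called genes was 2 without CR7, 3 without CR10, 6 without Con8 and 8 without CR8.

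The members lie in a stretch of 1.14 Mb of chromosome 7, at chr7:25897658-27036815 in mm10, 6 on the plus strand and Cyp2a22 on the minus strand. From the start of the stretch the order is Cyp2b10, Cyp2b13, Cyp2b9, Cyp2a4, Cyp2a5, Cyp2a22 and Cyp2a12. Cyp2b9 occupies chr7:26173409-26210660 and its neighbor Cyp2b13 chr7:26061495-26096196. Cyp2a4 at chr7:26307192-26315088 is apart from its near copy Cyp2a5 at chr7:26835339-26843264. Between the outermost members lie 8 other genes, of which 6 were at 0 in every library, Cyp2b23 among them. Cyp2g1, the neighbor of Cyp2a5 and best known from olfactory mucosa, was the 1 of the 8 to pass the filter, at an FPKM of at most 3.35. It had a log2 fold change of 0.85 at day 25 (SE 0.23, limma with Benjamini-Hochberg adjusted p = 0.0391) and 0.58 at day 30 (SE 0.23, adjusted p = 0.105), below the minimum change on both days. Of the 5 next genes on each side of the stretch, 8 were tested and 0 were called by limma on either day, with log2 fold changes of -0.71 to 0.19. Cyp2f2, an abundant periportal P450 gene just outside the stretch, had a log2 fold change of -0.24 at day 25 (SE 0.17, limma adjusted p = 0.416) and -0.42 at day 30 (SE 0.17, limma adjusted p = 0.106).

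**Figure D3:**
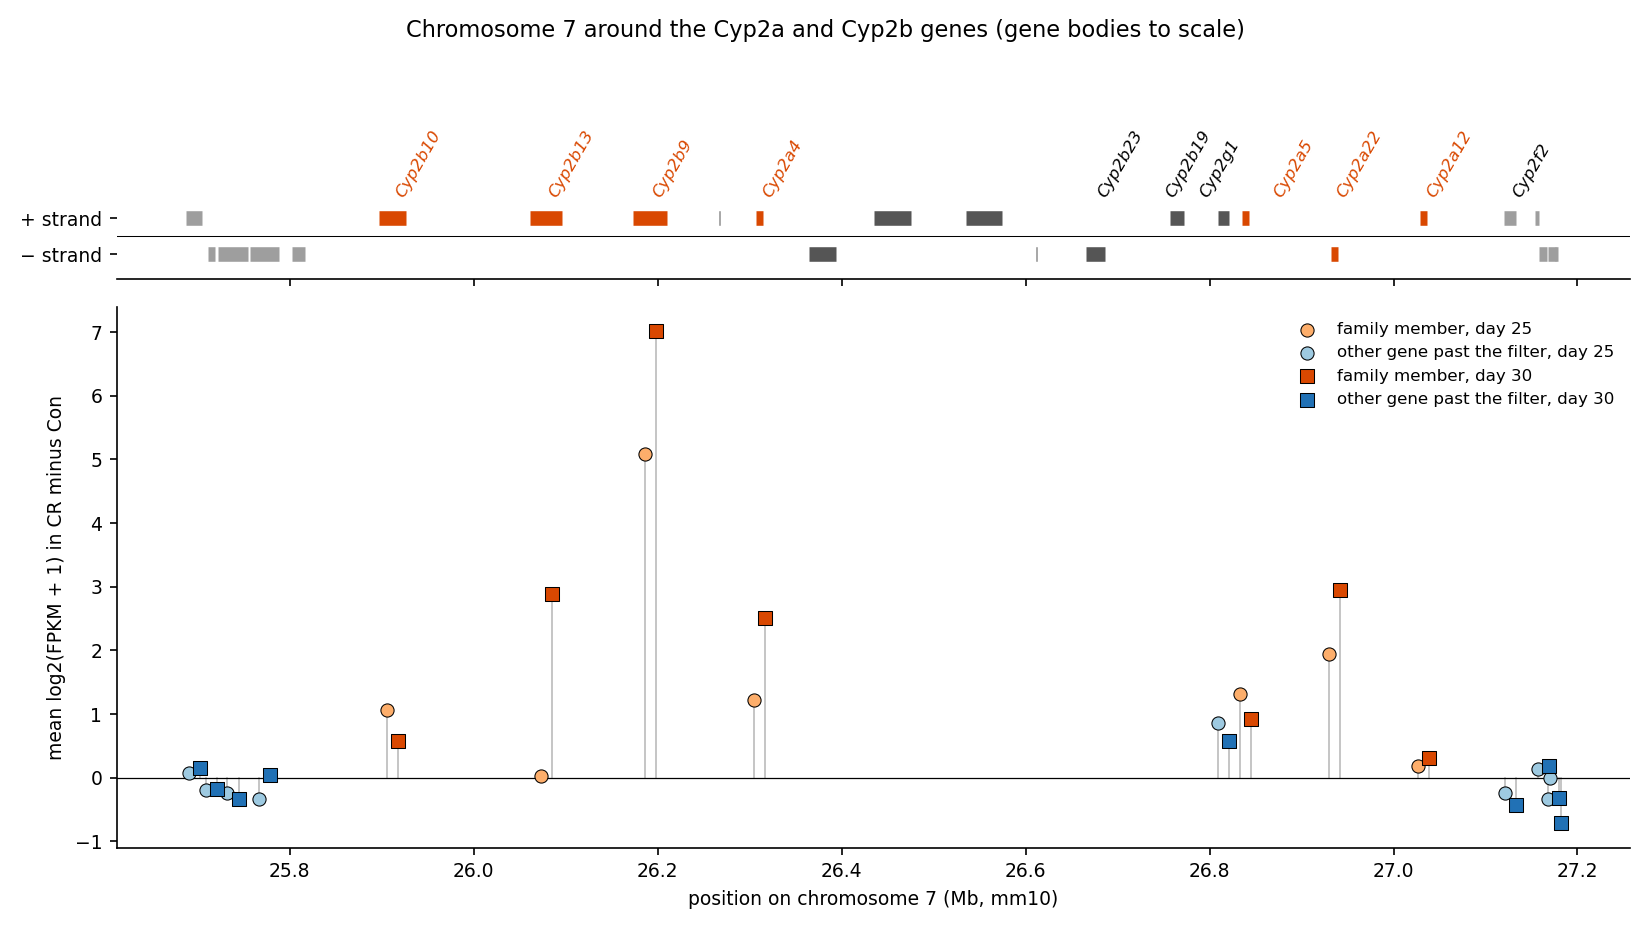
Genes of chromosome 7 from the 5 genes before Cyp2b10 to the 5 genes after Cyp2a12 (mm10, gene bodies to scale, by strand) above the mean log2(FPKM + 1) in CR minus Con mice at day 25 (circles) and day 30 (squares). The largest differences are those of Cyp2b9, 5.09 and 7.01, while the 8 tested flanking genes stay between -0.71 and 0.19.

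Several members are near copies of each other, so reads could be placed on the wrong one, and the treatment of reads with several equally good places is not given in the sources used here. The GENCODE M21 transcripts matched to the RefSeq entries of Cyp2a4 and Cyp2a5 are identical at 98.3% of aligned bases, and 183 windows of 100 bases, 11.2% of those in Cyp2a4, occur unchanged in Cyp2a5. Cyp2a12 and Cyp2a22 are identical at 96.5% of aligned bases and share 108 windows, 6.83% of those in Cyp2a12. Cyp2b9 and Cyp2b13 are identical at 91.9% and share 21 windows, 1.18% of those in either, and Cyp2b10 shares 0 windows with any other member. The values of Cyp2a4, Cyp2a22 and Cyp2b13 are therefore uncertain. For Cyp2a4 there were 0.0282 to 0.0898 reads per 100 reads of Cyp2a5 in Con mice, 0.177 to 0.229 in CR mice at day 25 and 0.392 to 1.05 in CR mice at day 30. This ratio was thus not constant across groups. For Cyp2b13 there were 20.9 reads per 100 reads of Cyp2b9 in CR10, 2.30 in CR11, 1.24 in CR12 and 0 to 0.132 in the CR libraries of day 25. In Con libraries, with at most 15 reads of Cyp2b9, it was 13.3 in Con9, 16.7 in Con10 and 0 in the other 4. Reads placed on the wrong copy stay within a sum over near copies, but reads that were dropped or counted at both places would change it, which was not tested. Cyp2a4 and Cyp2a5 together had a CR to Con ratio of 2.49 at day 25 and 1.86 at day 30 in RPM. The sum of all 3 Cyp2b genes had a ratio of 5.06 and 8.56. The sum of Cyp2b9 and Cyp2b13, chosen after seeing the data, had one of 192 and 1159. Its day 25 ratio depended on Con9, which held 1.01 RPM against a Con group mean of 0.427. For Cyp2b9 alone, the day 25 ratio of mean FPKM rose from 212 to 605 without Con9.

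The 250 bases before the transcription start were compared in all 7 members, because near copies in sequence differed in level. The windows come from RefSeq (GRCm38.p6) and are written 5′ to 3′ in the direction of the gene. The windows of Cyp2b9 (chr7:26173159-26173408) and Cyp2b13 (chr7:26061245-26061494) were 99.2% identical and differed at 2 of 250 bases, marked in capitals.
Cyp2b9: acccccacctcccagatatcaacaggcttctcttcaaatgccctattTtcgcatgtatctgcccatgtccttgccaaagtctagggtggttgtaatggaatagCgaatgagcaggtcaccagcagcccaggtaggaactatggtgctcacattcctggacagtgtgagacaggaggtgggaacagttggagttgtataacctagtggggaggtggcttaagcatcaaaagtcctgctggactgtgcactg
Cyp2b13: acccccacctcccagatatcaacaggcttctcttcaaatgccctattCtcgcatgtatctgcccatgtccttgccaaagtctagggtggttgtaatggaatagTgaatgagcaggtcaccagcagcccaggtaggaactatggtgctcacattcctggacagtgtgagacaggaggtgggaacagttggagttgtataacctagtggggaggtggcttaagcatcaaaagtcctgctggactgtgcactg
The reads of these 2 genes at day 25 in CR mice, 4885 and 5, thus came from genes whose proximal windows are almost the same.

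The windows of Cyp2a5 (chr7:26835089-26835338) and Cyp2a4 (chr7:26306942-26307191) differed at 4 of 249 aligned bases, again in capitals, and are shown because the mean FPKM of these genes in Con mice at day 25 was 337 and 0.162.
Cyp2a5: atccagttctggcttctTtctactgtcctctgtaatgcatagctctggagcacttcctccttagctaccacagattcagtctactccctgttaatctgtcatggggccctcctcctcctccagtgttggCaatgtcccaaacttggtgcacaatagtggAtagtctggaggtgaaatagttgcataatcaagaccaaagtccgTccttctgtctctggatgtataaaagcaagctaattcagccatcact
Cyp2a4: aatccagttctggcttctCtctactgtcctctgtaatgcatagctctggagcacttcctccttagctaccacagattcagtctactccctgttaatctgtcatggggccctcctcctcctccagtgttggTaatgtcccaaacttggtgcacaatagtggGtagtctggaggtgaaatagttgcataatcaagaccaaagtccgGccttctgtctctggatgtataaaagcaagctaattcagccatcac
The windows of Cyp2a12 and Cyp2a22 were 91.8% identical over 232 aligned bases, and that of Cyp2b10 was 75.8% identical to that of Cyp2b9 over 240.

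The window of Cyp2b10 (chr7:25897408-25897657) held none of the 6 motifs searched. Sequence outside these windows was not searched.
Cyp2b10: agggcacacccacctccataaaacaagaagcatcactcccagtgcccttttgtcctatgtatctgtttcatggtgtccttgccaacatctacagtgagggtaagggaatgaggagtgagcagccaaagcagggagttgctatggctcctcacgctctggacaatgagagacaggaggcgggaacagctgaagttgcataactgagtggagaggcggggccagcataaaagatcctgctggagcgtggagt
On either strand, the nuclear receptor motif AGGTCA was found in the windows of Cyp2b9 and Cyp2b13, 138 bases before the start in both, and in 14% of 32851 RefSeq windows of this length. The TATA box TATAAA was found in all 4 Cyp2a windows and in 12.4% of all windows. The STAT5 motif TTCNNNGAA (7.02% of all windows), the E-box CACGTG (6.02%), the D-box TTANGTAA (2.06%) and the C/EBP motif TTGCGCAA (0.164%) were in 0 of the 7 windows. A match describes the letters of the window and is not a measured site.

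Genes outside the family whose log2(FPKM + 1) followed a member most closely over the 12 libraries are given without a test, since all libraries differ by diet and day. For Cyp2b9 they included Nrg4 (r = 0.984) and C4bp-ps1 (r = 0.981). After the group means were removed, r was 0.474 and 0.482, so among mice of the same group the likeness was weaker. For Cyp2a22 they included Prps1 (r = 0.975) and Tox (r = 0.961), and for Cyp2a4 they were Gtf2e2 (r = 0.967), Tmem185a (r = 0.966) and Gstp3 (r = 0.964). For Cyp2b13 the closest was Sult2a7 (r = 0.906), for Cyp2a5 Parp16 (r = 0.940) and for Cyp2a12 Tmem39b (r = 0.950). For Cyp2b10 they were Natd1 (r = 0.891), the glutamate transporter gene Slc1a2 (r = 0.883) and the CAR target Cyp2c37 (r = 0.859). With the group means removed these were 0.862, 0.895 and 0.798, so for Cyp2b10 the likeness was nearly as strong among mice of the same group.

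Other female-predominant liver genes, the class to which Cyp2a4, Cyp2b9 and Cyp2b13 belong, were tested in both comparisons of CR with Con mice. Of 25 such genes 15 were tested, and limma called 6 higher and 0 lower in CR mice at day 25, against 0.84% of all genes higher and 0.642% lower. At day 30 limma called 13 higher and 0 lower, against 0.925% and 1.28% of all genes. Leaving out 1 library gave 4 to 6 genes called higher at day 25 and 10 to 14 at day 30. Of the 15 genes, 5 reached the filter only with the help of CR libraries, which favors a higher level in CR mice. These are 1 of the 6 genes called at day 25 and 5 of the 13 at day 30, and they add no support. The median log2 fold change of the list was 0.84 at day 25 and 1.69 at day 30, and that of all genes -0.04 and -0.07. The list medians include the 5 genes that needed CR libraries, and over the other 10 they were 1.04 and 1.59. Cyp2c40, an arachidonate-metabolizing P450 gene, was higher in CR mice by 2.34 at day 25 (SE 0.31, limma with Benjamini-Hochberg adjusted p = 0.00135). At day 30 it was higher by 1.69 (SE 0.31, limma adjusted p = 0.00385). Acot3, which encodes an acyl-CoA thioesterase, rose by 2.78 at day 30 (SE 0.43, limma adjusted p = 0.00140). Of 22 male-predominant genes 21 were tested, and limma called 0 higher and 12 lower at day 25 and 0 higher and 20 lower at day 30, with medians of -1.32 and -2.34. Of these, 1 gene, called at day 30, reached the filter only with the help of Con libraries. This favors a lower level of it in CR mice. Leaving out 1 library gave 8 to 14 male-predominant genes called lower at day 25 and 16 to 20 at day 30. Mup17, a major urinary protein gene whose reads are uncertain because its relatives are near copies, fell by 8.26 at day 30 (SE 0.52, limma adjusted p = 4.82e-06). Both lists were written with earlier results of these data known.

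**Figure D4:**
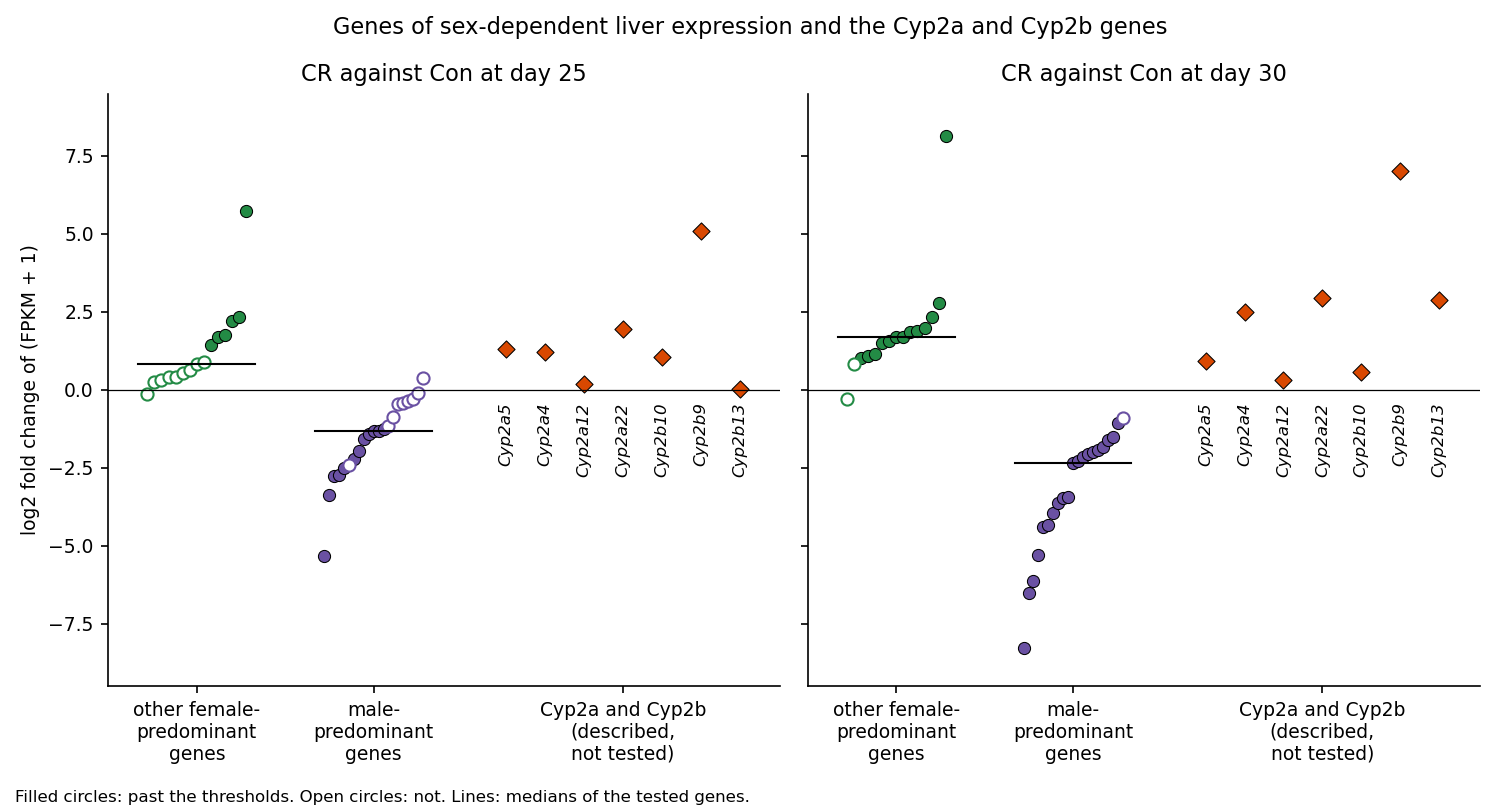
log2 fold change of (FPKM + 1) in CR against Con mice at day 25 (left) and day 30 (right) for the tested genes of both sex-dependent lists (circles, filled where past the thresholds, with the median as a line) and for the 7 Cyp2a and Cyp2b genes (diamonds, not tested). At day 30, 13 of 15 female-predominant genes are filled and above 0 and 20 of 21 male-predominant genes are filled and below 0.

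Genes that act on or with the family were counted in the same way. Of 12 xenobiotic receptors and liver factors, limma called 0 at day 25 and 1 at day 30, the coactivator gene Ppargc1a. Nr1i3, which encodes CAR, had a log2 fold change of 0.18 at day 25 (SE 0.21, limma adjusted p = 0.645) and 0.37 at day 30 (SE 0.21, limma adjusted p = 0.240). Nr1i2, which encodes the related receptor PXR, had one of 0.75 (SE 0.14, limma adjusted p = 0.00684) and 0.84 (SE 0.14, limma adjusted p = 0.00206), below the minimum change. Of 20 other genes induced through CAR or PXR 19 were tested, and limma called 1 higher and 0 lower on each day, the glutathione transferase gene Gstm3. Its day 25 call was lost without Con8, Con9, CR8 or CR9, with adjusted p-values from limma of 0.175, 0.184, 0.119 and 0.234. Por, the electron donor of the P450 enzymes, was the 1 called gene of 14 for electron donors and heme supply, with a log2 fold change of 1.14 at day 25 (SE 0.21, limma adjusted p = 0.00608) and 1.65 at day 30 (SE 0.21, limma adjusted p = 0.000412). Without Con7 the day 25 value of Por was 0.84, under the minimum change. The call of Ppargc1a was lost without Con10 or CR10, with log2 fold changes of 0.98 and 0.90.

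Of 14 growth hormone signaling genes 13 were tested and limma called 0 on either day, with medians of -0.19 and -0.40. Of 15 clock and PAR bZIP genes 14 were tested, and limma called 3 higher and 1 lower at day 25 and 2 higher and 1 lower at day 30. Nr1d1 was the lower one, by -2.37 (SE 0.14, limma adjusted p = 5.1e-06) and -2.28 (SE 0.14, limma adjusted p = 4.02e-06), while Dbp, whose protein binds D-box motifs, had 0.02 (SE 0.29, limma adjusted p = 0.977) and -0.31 (SE 0.29, limma adjusted p = 0.496). Among 13 pericentral hepatocyte genes, the zone where CYP2A5 and the CYP2B enzymes are usually found, limma called 0 on either day. Among 12 periportal genes it called 0 at day 25 and 2 higher at day 30, Sds and Pck1. Their log2 fold changes of 1.21 and 1.02 fell under the minimum change without 1 library, to 0.94 for Sds without Con11, and for Pck1 to 0.91 without CR10, 0.97 without CR12 and 0.98 without Con12. Of 5 chromosome sex genes 4 were tested and 0 called by limma, and the male label was met by a mean FPKM of at most 0.0313 for Xist and of 12.4 to 17.3 for the Y-linked Ddx3y in each group.

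Markers of liver cell types were examined beside the members. Alb was the most abundant of the 8 hepatocyte markers, at an FPKM of 25401 to 51723, and their summed FPKM was 44436 to 51309 in Con and 50700 to 53968 in CR libraries at day 25, and 36974 to 45796 and 53557 to 64595 at day 30. Limma called 1 of the 8, Tat, higher on both days. The 8 Kupffer cell and macrophage markers, led by Cd5l, summed to 40.5 to 69.8 in Con and 26.3 to 34.6 in CR libraries at day 25 and to 37.0 to 54.1 and 35.9 to 48.8 at day 30, with 0 called by limma. The 7 sinusoidal endothelial markers, led by Clec4g, summed to 42.0 to 64.9 and 56.3 to 68.1 at day 25 and to 43.9 to 46.4 and 59.0 to 66.5 at day 30, with 0 called. The 8 stellate cell markers, led by Dcn, summed to 96.4 to 108 and 116 to 138 at day 25 and to 78.1 to 99.8 and 123 to 141 at day 30, with 7 tested and 0 called. The part of these shifts in the levels of the Cyp2a and Cyp2b genes was not tested.

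Markers of other cells were low or uneven in the same libraries. The 6 cholangiocyte markers, led by Spp1, summed to 7.83 to 18.0 over all libraries, and the 7 pancreatic acinar markers, led by Cela1 and with Amy2a5 at 0 throughout, to 6.25 to 11.9. The 9 lymphocyte markers summed to at most 2.69 (Ptprc highest), the 6 neutrophil markers to at most 1.76 (S100a8 highest, Ly6g at 0 throughout) and the 5 adipocyte markers to at most 6.02, in Con12 (Cfd highest). The 6 erythroid markers, led by Hbb-bs, summed to 193 to 638, with 1015 in CR10 and 1107 in Con9. CR10 held most Cyp2b13 reads, and Con9 held the most Cyp2b9 and Cyp2a22 reads among Con libraries of day 25. Limma called 1 erythroid gene, Alas2, lower at day 30. The part of blood cells in the Cyp2a and Cyp2b values was not tested.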

How the data were processed

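RNA-Seq libraries were made from the livers of 12 mice, 1 per mouse, so replicates are separate animals. According to the methods and processing notes, the authors mapped paired-end reads to mm10 with BWA and tested differential expression with DESeq2. The deposited values are FPKM. By the file header, HOMER counted exon reads and condensed each gene to 1 transcript, and libraries were not scaled to each other further. The deposited table also gives another value, the exon length of that transcript, which with the FPKM steps gave the depth of each library and whole reads (100% of 1500 low values per library were whole). Few reads limit the precision of genes with low FPKM.

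Genes entered if 3 or more libraries reached an FPKM of 1, which left 10593. On their log2(FPKM + 1), 1 limma 3.58.1 model of the 4 groups was fitted in R 4.3.3, with moderation that follows a trend on expression. All tests are 2-sided, with Benjamini-Hochberg adjustment over all genes tested, and a gene was called if its adjusted p was below 0.1 and its log2 change was 1 or more in either direction. The script was tested on simulated data. An exact test of a single gene by permutation, 3 mice against 3, allows no p smaller than 0.1. Python 3.11.15, numpy 2.4.6, pandas 2.3.3, scipy 1.17.1, biopython 1.88 and matplotlib 3.10.9 were used for the other steps.

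The members and gene lists were chosen with earlier results of these data known. Named genes are the 7 members, up to 4 called genes with the largest change per list and day, 11 genes always named, among them Nr1i3, Nr1i2, Por and Cyp2f2, the genes of the same stretch of chromosome, and the 3 genes most like each member. Where the text names a gene outside this rule, it says so, and 1 gene that the rule names is not reported here.

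Groups follow the sample labels, and Con columns of day 30 carry no replicate number in the labels. Replicate numbers at day 25 come from the labels and belong to different animals. Deviations from the group means correlated between same-numbered Con and CR mice by 0.106 to 0.368 at day 25, so a fit with the number as a block was tried there. Alternatives changed the pseudocount, scaling, filter, moderation, groups in the model, minimum fold change, the block and the libraries, used voom on the recovered reads, or summed near copies. Sums over Cyp2b9 and Cyp2b13 were added after seeing the data. Promoter windows came from RefSeq (GRCm38.p6), and transcripts from GENCODE M21, matched through their RefSeq entries.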

Additional observations from a re-analysis of the deposited data

Results flagged for a closer look

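The diet effect on the small nucleolar RNA gene Snord55 differed between the days past the thresholds, by -1.68 on the log2 scale (SE 0.23, limma with Benjamini-Hochberg adjusted p = 0.0833). The gene had 0 reads in each Con library of day 25 and at most 3 reads in any other library, and the call was lost without Con7, Con8, Con9, Con12, CR7, CR8, CR10, CR11 or CR12, with adjusted p-values from limma of 0.135 to 0.351. It was kept without Con10, Con11 or CR9, and lost with quantile normalization (adjusted p = 0.134), without a filter (0.103) and with voom on the recovered reads (1.00). Its level is too near the limit of detection at this depth to rank it beside genes with more reads. Among 190 named and listed genes outside the family, 0 passed this test in limma, with a lowest adjusted p of 0.176.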

How the results depend on the processing

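The number of called genes outside the family was 153 at day 25 and 230 at day 30. It was 272 and 381 with a pseudocount of 0.1, 1578 and 2613 without a minimum fold change, and 298 and 419 with voom on the recovered reads. Under the other alternatives it stayed within 1.5 times, and leaving out 1 library gave 133 to 166 and 198 to 282. For the difference of the diet effect between days, the count of 1 was 2 with a pseudocount of 0.1, 0 with quantile normalization, without a filter, with a filter at FPKM 5 or with voom, and 0 to 4 when 1 library was left out. Between days in Con mice, the count of 0 was 1 with a pseudocount of 0.1 or TPM and 0 to 10 with 1 library left out. Between days in CR mice, the count of 15 was 3 without a filter, 34 without a minimum fold change and 2 to 18 with 1 library left out. The 2 members called there, Cyp2b9 and Cyp2a4, became 1 with TPM (Cyp2a4), with a filter at FPKM 5 (Cyp2b9, since Cyp2a4 does not pass it) and with a pseudocount of 0.1 (neither of them but Cyp2b13, whose direction the filter fixed). The count was 0 without a filter or with the CR groups alone, and 0 to 3 with 1 library left out, Cyp2b13 counted too. Of the female-predominant genes called higher at day 30, 13 became 8 with a filter at FPKM 5, which tests fewer genes. Otherwise the cause was not tested.

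With the replicate block at day 25, 166 genes outside the family were called, and 14 instead of 12 male-predominant genes were lower. Among the named genes the block changed 1 call, that of Selenbp2, a male-predominant gene with a log2 fold change of -2.40 (limma with Benjamini-Hochberg adjusted p = 0.0125 with the block and 0.111 without, and 0.0125 to 0.353 over all alternatives), and no other. CR mice of the 2 days share only a number, with correlations of -0.382 to 0.299 between same-numbered mice, and not every mouse correlated best with its own number. There the replicate block gave 26 called genes instead of 15 and 1 called member instead of 2, Cyp2b9 (limma adjusted p = 0.0994), with Cyp2a4 at 0.103.

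Of 276 values of the members' CR against Con differences under the alternatives, 246 lay within 1 SD of the value given and 29 beyond it with the same sign. The 1 that changed sign was Cyp2b13 at day 25, which was -0.0423 with quantile normalization, from at most 3 reads per library. Genes with few reads in Con mice, such as Cyp2a4, Cyp2b9 and Cyp2b13, are limited in precision by that depth.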

Other observations

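Beside Cyp2b9 and Cyp2a4, 13 genes outside the family differed between day 30 and day 25 in CR mice by limma with Benjamini-Hochberg adjustment. The genes given here were picked with their values in view. Elovl6, which encodes a fatty acid elongase, was higher at day 30 by a log2 fold change of 1.08 (SE 0.09, limma adjusted p = 0.000447). It passed the thresholds whichever of the 12 libraries was left out. The 13 include A1bg, which passed the filter through the CR libraries of day 30 alone, so that its direction was fixed and its call says nothing. Serpina7, the gene of thyroxine-binding globulin, had a log2 fold change of 1.34, the bile acid synthesis gene Cyp8b1 one of -2.55 and the male-predominant Mup7, whose reads are uncertain because its relatives are near copies, one of -2.62. These 3 calls were lost without CR7 and without CR10, with adjusted p-values from limma of up to 0.117 for Serpina7 and Cyp8b1 and up to 0.148 for Mup7.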
